A study of Mus musculus with 6 samples.

Results

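The miR-148 family, which includes miR-152, and the miR-101 family are represented in the deposited table of mature miRNAs by 7 names: mmu-miR-148a-3p, mmu-miR-148a-5p, mmu-miR-148b-3p, mmu-miR-152-3p, mmu-miR-101a-3p, mmu-miR-101b-3p and mmu-miR-101a-5p. The mouse prefix mmu is left out from here on. They were taken by name, and all 7 were present among the 2009 names of the table. The study compared 3 hearts subjected to ischemia and reperfusion (I/R) with 3 sham hearts, all from male mice; the labels state no strain, age or genotype. Every heart was perfused outside the body on a Langendorff system, which feeds the isolated organ through the aorta. Sham hearts went on beating, whereas I/R hearts were stopped with a cardioplegia solution for 30 min and then reperfused for 1 h. Each library is 1 heart and each group holds 3 biological replicates by the labels. As a model, this is a whole organ cut off from the circulation, and all its cell types are measured together.

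A miRNA is cut from a hairpin precursor as a short strand that guides an Argonaute protein to messenger RNAs, mainly through its seed, bases 2 to 8 from the 5′ end. The strands of the precursor are called the 5p and the 3p arm, and usually 1 of them, the guide, is kept while the other, the passenger, is degraded. miR-148a, miR-148b and miR-152 are 3 copies of a family known for repressing Dnmt1, the enzyme that maintains DNA methylation through cell division. miR-101 is known for repressing Ezh2, the catalytic subunit of Polycomb repressive complex 2, which methylates histone H3. Both families are widely expressed, and miR-148a is especially abundant in liver.

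The sequences below are shown because they decide which names can be told apart by their reads and which share targets. They come from RefSeq (GRCm38.p6), in which all 7 members were matched, and the capitals mark the seed.
miR-148a-3p: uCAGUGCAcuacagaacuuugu
miR-148b-3p: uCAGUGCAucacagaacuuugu
miR-152-3p: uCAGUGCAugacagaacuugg
miR-148a-5p: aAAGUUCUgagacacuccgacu
miR-101a-3p: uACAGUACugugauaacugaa
miR-101b-3p: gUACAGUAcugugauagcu
miR-101a-5p: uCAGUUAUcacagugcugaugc

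The 3p arms of the miR-148 family share the seed CAGUGCA, and no other name in the RefSeq table, which holds 1679 mature names, has it. Their differences lie outside the seed. Counting from the 5′ end of miR-148a-3p, miR-148b-3p carries C9U and U10C, so 20 of 22 bases are identical. miR-152-3p carries C9U, U10G and U20G, with 18 of 21 aligned bases identical. miR-101a-3p and miR-101b-3p differ in 1 of 18 aligned bases, A16G, counted from the 5′ end of miR-101a-3p. The annotated miR-101b-3p starts 1 base further upstream, so its bases 2 to 8 are UACAGUA, while the miR-101a-3p seed ACAGUAC stands at its bases 3 to 9. The table gives 1 value per name, so the 5′ ends of the reads behind miR-101b-3p were not analysed here.

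The name miR-101c matters for the reading of miR-101a-3p although it is not a member. Its sequence is shown with the miR-101a-3p seed in capitals.
miR-101c: ACAGUACugugauaacuga

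All 19 bases of miR-101c lie within miR-101a-3p, from its base 2 onward. miR-101c stood at 39.0 ± 2.80 RPM (reads scaled to 1000000 per library; mean ± SD, n = 3) in sham hearts and at 39.3 ± 2.10 RPM after I/R. Its share in the sum with miR-101a-3p was 0.845% to 0.946% over the 6 libraries, and the 95% Wilson intervals of the libraries lay between 0.755% and 1.05%. A read of these 19 bases fits both names, so the split of such reads is uncertain, and how many are listed under miR-101a-3p was not analysed here.

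The seeds were searched for in the longest annotated 3′ untranslated region (UTR) of each gene in GENCODE M21, on the transcript strand. The motif TGCACTG, the complement of the miR-148 seed, occurred 1 time in the 312-base 3′ UTR of Dnmt1, against 3.12% of the 1699 UTRs of 0.8 to 1.2 times that length. It lies at chr9:20907490-20907509 (GRCm38, minus strand). The motif GTACTGT, the complement of the miR-101a-3p seed, occurred 2 times in the 402-base 3′ UTR of Ezh2, against at least 1 time in 2.73% of 1797 UTRs of similar length. These lie at chr6:47530474-47530493 and chr6:47530419-47530438 (minus strand). The stretches are shown 5′ to 3′ as DNA letters with the motif in capitals.
Dnmt1: agagccccacgTGCACTGat
Ezh2, upstream: aggaaccttgaGTACTGTgg
Ezh2, downstream: gaatttgcaaaGTACTGTaa

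Of 5 further genes for DNA methyltransferases and Polycomb subunits, Eed and Dnmt3a held 1 GTACTGT each, in UTRs of 410 and 6696 bases where 2.92% and 36.6% of UTRs of similar length hold it. Neither motif was in the 3′ UTRs of Dnmt3b, Ezh1 and Suz12. A match is only a description of the letters, and the table holds no messenger RNA.

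The 5 hairpins lie on 5 chromosomes (GRCm38), so the copies of a family come from separate loci; only the 2 arms of Mir148a and of Mir101a share a hairpin. Mir148b lies at chr15:103285125-103285221 (plus strand) in an intron of Copz1, and Mir152 at chr11:96850393-96850465 (plus strand) in an intron of Copz2. These related host genes encode zeta subunits of the COPI coat of transport vesicles. Mir148a lies at chr6:51269812-51269910 (minus strand) outside annotated genes, 162760 bp from Nfe2l3, the nearest protein-coding gene. Mir101b lies at chr19:29135279-29135375 (plus strand) in an intron of Rcl1, a gene for a ribosomal RNA processing protein. Mir101a lies at chr4:101346945-101347027 (minus strand) in an exon of the long noncoding RNA E130102H24Rik. Another hairpin within 10 kb was found for none of the 5.

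Between 7874103 and 9197869 reads per library fell on named miRNAs, so that 1 read corresponds to 0.109 to 0.127 RPM. Names were tested when their mean was at least 1 RPM and they were above 0 in at least 3 libraries, which left 409. Of the 7 members, 6 passed this filter and miR-101a-5p did not. Intervals and limits from read numbers cover counting error only, since no source names molecular identifiers.

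The members ranged from 11874 RPM down to 0 reads, and their order was the same in all 6 libraries. miR-148a-3p was the highest, at 9868 to 11874 RPM, rank 14 of the 409 tested names by mean level. miR-101a-3p followed at 3888 to 4529 RPM (rank 22), then miR-152-3p at 1354 to 1754 RPM (rank 36), miR-101b-3p at 855 to 1014 RPM (rank 50) and miR-148b-3p at 213 to 275 RPM (rank 79). The passenger arm miR-148a-5p lay at 17.5 to 26.7 RPM (rank 179). No neighbours in this order overlapped, so each step was larger than the spread over hearts. These mature strands have nearly equal lengths, 19 to 22 bases, and the values were made with 1 constant length, so levels can be set beside each other, though ligation and mapping can favour 1 sequence over another.

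**Figure D1:**
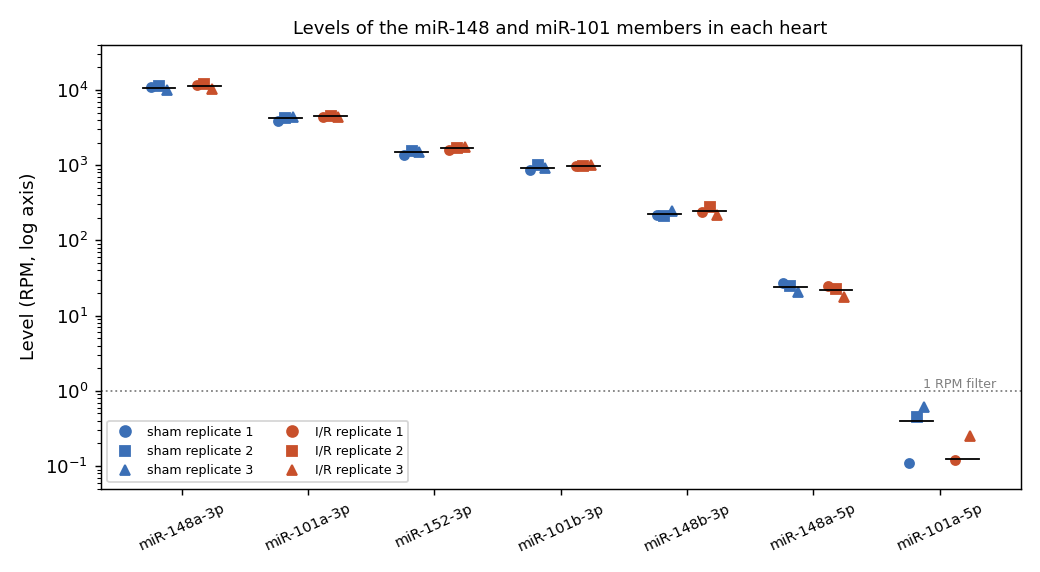
Level of each member in each heart in RPM on a log axis, with sham hearts in blue, I/R hearts in orange, symbols for replicate numbers and black lines for group means. The 7 members fall into the same order in every heart, from miR-148a-3p at 9868 to 11874 RPM to miR-101a-5p below the dotted 1 RPM filter; I/R replicate 2, with 0 reads of miR-101a-5p, has no point there.

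The miR-148 3p arms together held 1.24 ± 0.071% of all reads in the sham group and 1.31 ± 0.085% in the I/R group (mean ± SD over 3 hearts). miR-148a-3p made up 83.8% to 87.3% of the family, miR-152-3p 10.9% to 14.4% and miR-148b-3p 1.63% to 2.13%. The miR-101 3p arms together held 0.511 ± 0.032% and 0.545 ± 0.004% of all reads. Within them miR-101a-3p made up 80.7% to 82.9% and miR-101b-3p 17.1% to 19.3%. In both families, then, 1 copy supplied over 80% of the reads in every heart.

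Members of the miR-148 family are described in turn, with sham replicates 1 to 3 given before I/R replicates 1 to 3. miR-148a-3p, the dominant copy, was at 10841, 11269 and 9868 RPM in the sham hearts and 11570, 11874 and 10213 RPM in I/R hearts. The groups overlapped, and in each group replicate 3 was the lowest. The limma log2 fold change was 0.07 (SE 0.08, 95% interval -0.12 to 0.26, adjusted p = 0.797).

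miR-152-3p, the copy in the Copz2 intron, was at 1354, 1556 and 1511 RPM in the sham hearts and 1594, 1687 and 1754 RPM in I/R hearts. Every I/R heart lay above every sham heart, with a gap of 1556 to 1594 RPM. The limma log2 fold change was 0.19 (SE 0.09, 95% interval -0.02 to 0.40), the highest of the 6 tested members, but it did not pass over all names (unadjusted p = 0.0683, adjusted p = 0.598). Without sham replicate 1, the lowest heart, the log2 fold change was 0.13.

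miR-148b-3p, the copy in the Copz1 intron, was at 217, 213 and 248 RPM in the sham hearts and 239, 275 and 221 RPM in I/R hearts. The groups overlapped, and replicate 3 was the highest sham heart but the lowest I/R heart. The limma log2 fold change was 0.11 (SE 0.12, 95% interval -0.17 to 0.39, adjusted p = 0.792).

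miR-148a-5p, the passenger arm, was at 26.7, 24.6 and 20.4 RPM in the sham hearts and 24.8, 22.6 and 17.5 RPM in I/R hearts. The groups overlapped, with replicate 1 highest and replicate 3 lowest in both. With the deposited equal totals it was the only tested member with a negative limma log2 fold change, -0.14 (SE 0.17, 95% interval -0.53 to 0.25, adjusted p = 0.798).

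In the miR-101 family, miR-101a-3p was at 3888, 4244 and 4422 RPM in the sham hearts and 4428, 4529 and 4425 RPM in I/R hearts. The groups did not overlap, but the highest sham heart and the lowest I/R heart differed by a mere 4422 against 4425 RPM. The limma log2 fold change was 0.09 (SE 0.08, 95% interval -0.08 to 0.27, adjusted p = 0.692). The I/R hearts lay closer together than the sham hearts, with coefficients of variation (SD over mean) of 1.32% and 6.50%; this difference in spread was not tested.

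miR-101b-3p, from the Rcl1 intron, was at 855, 1014 and 913 RPM in the sham hearts and 983, 961 and 1013 RPM in I/R hearts. The groups overlapped, since sham replicate 2 was above all I/R hearts. The limma log2 fold change was 0.09 (SE 0.10, 95% interval -0.13 to 0.31, adjusted p = 0.792).

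miR-101a-5p, the passenger arm of miR-101a, had 1, 4 and 5 reads in the sham hearts and 1, 0 and 2 reads in the I/R hearts, or 0.109, 0.452 and 0.617 RPM against 0.122, 0 and 0.254 RPM. A count of 0 in I/R replicate 2 allows up to 0.367 RPM (3 reads). It was below the filter and was not tested, so with so few reads no statement on a difference is made.

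**Figure D2:**
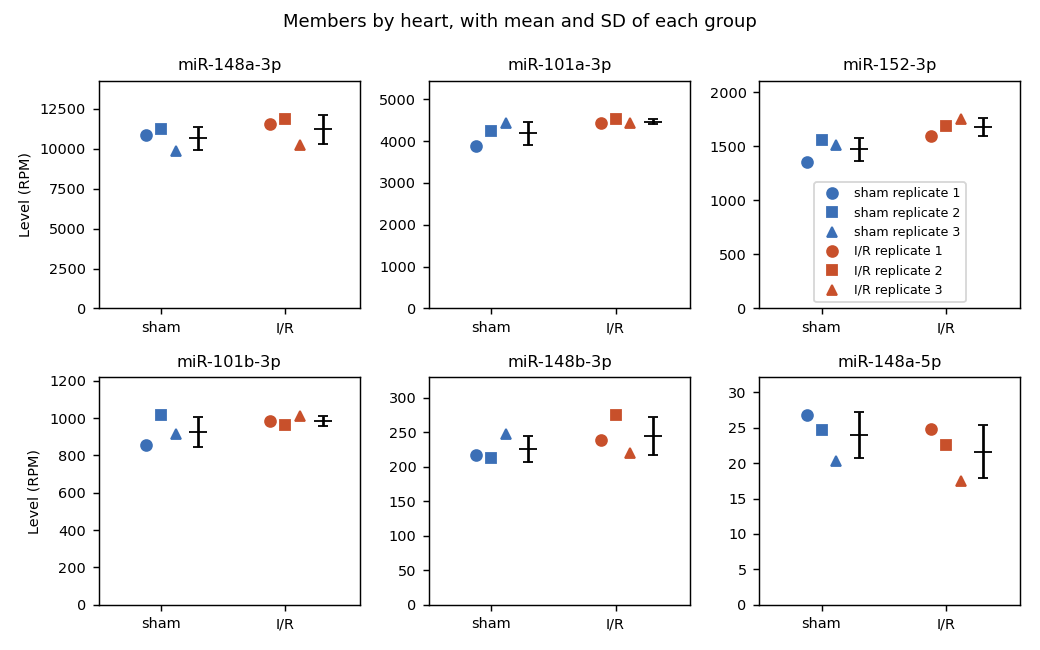
Level in RPM (linear axes from 0) of the 6 tested members in sham (blue) and I/R (orange) hearts, with black bars for mean ± SD, n = 3. The groups are separate for miR-152-3p, and for miR-101a-3p by 4422 against 4425 RPM, and overlap for the other members.

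Across all names limma called 0 of 409, and so 0 of the 6 tested members, at an adjusted p under 0.05 (percent called 0). At an unadjusted p under 0.05 the members again numbered 0, against 7.09% of all tested names higher and 0.244% lower. On the recovered reads edgeR called 0 names (percent called 0) and DESeq2 called 2 of 409 (0.489%), with 0 members among them. At an unadjusted p under 0.05 edgeR had 6.36% and DESeq2 4.16% of all names, again with 0 members. With the replicate number as a block, limma called 4 of the 409 names (0.978%) but 0 members. The 2 members whose groups did not overlap with equal totals, miR-152-3p and miR-101a-3p, were both higher in I/R, beside 11.2% of all names separate in that direction and 3.91% in the other. With equal totals 5 of the 6 members had a positive log2 fold change, beside 70.2% of all names, and their median was 0.09 against 0.10 over all names. With median-ratio scaling, quantile normalization, edgeR and DESeq2, 2 members were positive, beside 214, 194, 200 and 213 of the 409 names. With totals that left out the 10 most abundant names, 5 members were positive, beside 237 of the 409. Between hearts of the same replicate number, miR-148a-3p, miR-152-3p and miR-101a-3p were higher in I/R in 3 of 3 pairs, beside 26.7% of all names. miR-148a-5p was lower in 3 of 3 pairs, beside 9.29%. The members' median shift is thus close to that of the whole table. All 6 intervals excluded a 2-fold rise and a 2-fold fall, and the widest, that of miR-148a-5p, ran from 0.690-fold to 1.19-fold on the scale with the pseudocount.

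**Figure D3:**
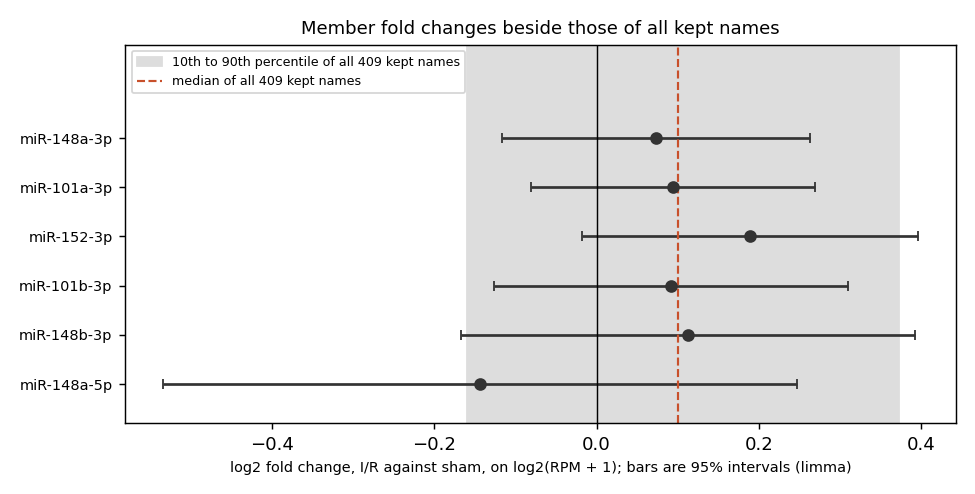
limma log2 fold change, I/R against sham, of each tested member with its 95% interval, beside the median of all 409 tested names (dashed line, 0.10) and their 10th to 90th percentile (grey band, -0.16 to 0.37). All 6 intervals include 0, and the 5 guide strands lie near the dashed line while miR-148a-5p lies below it.

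The deposited libraries have equal totals, and the sign of several small differences depended on that choice. With median-ratio scaling the median of all names moved by -0.09, with quantile normalization by -0.11 and in edgeR with TMM scaling by -0.11. miR-101a-3p and miR-101b-3p then had negative log2 fold changes, of -0.038 to -0.0047 and -0.025 to -0.0073. With totals that left out the 10 most abundant names the median moved by -0.07, and these 2 members stayed positive, at 0.023 and 0.021. miR-148a-3p was negative with median-ratio scaling, edgeR and DESeq2 (-0.03, -0.04 and -0.02), and miR-148b-3p with quantile normalization (-0.02). miR-152-3p stayed positive and miR-148a-5p negative under these scalings, although neither passed a test. Relative to the median of all names, miR-152-3p was at 0.09 on the log2 scale with equal totals and at 0.08 to 0.14 over the alternatives with all libraries, and miR-148a-5p at -0.24 and at -0.26 to -0.15. The others turned about that median, with ranges of -0.03 to 0.08 for miR-148a-3p (0.08 with quantile normalization), -0.01 to 0.06 for miR-148b-3p, -0.03 to 0.04 for miR-101a-3p and -0.02 to 0.04 for miR-101b-3p. Marker miRNAs of heart muscle (4 of 4 in the table, miR-1a-3p by far the most abundant) were summed with equal totals only. They reached 385458 to 389856 RPM in sham and 357828 to 383230 RPM in I/R hearts. Every I/R heart thus lay below every sham heart in this sum, while the median log2 fold change of all names was 0.10. Taken singly, 1 of the 4 markers, miR-1a-3p, had separate groups. The part of this lower sum in the members' fold changes was not tested.

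**Figure D4:**
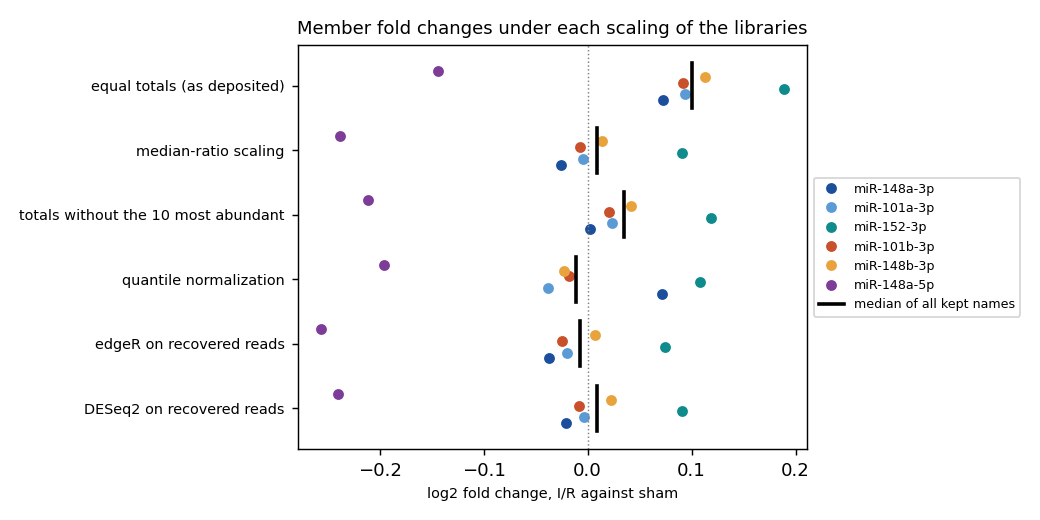
log2 fold change of the 6 tested members, I/R against sham, under the deposited equal totals and 5 other treatments of library size, with black bars for the median of all tested names. miR-152-3p stays to the right of the median and miR-148a-5p to its left in all 6 rows, and miR-148a-3p, left of it otherwise, lies to its right with quantile normalization.

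Ratios between members of a family do not depend on scaling each library by 1 factor, except slightly through the pseudocount. Quantile normalization is not such a factor and was not run for these ratios. With it the log2 fold changes of miR-148a-3p and miR-148b-3p were 0.07 and -0.02, against 0.07 and 0.11 with equal totals. The log2 ratio of miR-152-3p to miR-148a-3p was -3.001, -2.86 and -2.71 for sham replicates 1 to 3 and -2.86, -2.81 and -2.54 for I/R replicates 1 to 3. The groups overlapped, although the ratio was higher in I/R in 3 of 3 same-number pairs. The difference of 0.12 gave an exact two-sided permutation p = 0.5, and within pairs an exact permutation p = 0.25, the smallest that 3 pairs allow. It was 0.02 without I/R replicate 3 and 0.04 without sham replicate 1. That of miR-148b-3p to miR-148a-3p averaged -5.56 ± 0.22 for sham and -5.52 ± 0.08 for I/R (n = 3 hearts each, difference 0.04, exact permutation p = 0.8). That of miR-101b-3p to miR-101a-3p was -2.17 ± 0.11 and -2.18 ± 0.06 (difference -0.003, exact permutation p = 1). Adjusted over these 3 ratios each p was 1, and 3 against 3 hearts cannot give a p below 0.1.

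Read numbers set how much of the spread between hearts counting alone gives. miR-148a-3p rested on 79927 to 99713 reads, for which counting gives a coefficient of variation of 0.33%, against 6.73% between sham and 7.88% between I/R hearts. miR-152-3p had 0.88% and 0.86% from counting against 7.20% and 4.79%, and miR-148b-3p, the scarcest guide strand with 1737 to 2245 reads, 2.26% and 2.25% against 8.44% and 11.2%. The I/R hearts lay closer together for the miR-101 guides, but not for these alone. In sham and I/R hearts the SD was 700 and 104 RPM for miR-26a-5p and 119 and 5.30 RPM for miR-29a-3p. The reverse also occurred, as for miR-126a-3p (1278 and 3196 RPM), and the share of all names in each direction was not counted. For miR-101a-3p counting gives 0.53% against 1.32% between I/R hearts, and 0.52% against 6.50% between sham hearts. For miR-101b-3p it gives 1.12% against 2.65% between I/R hearts, and 1.11% against 8.72% between sham hearts. For miR-148a-5p, with 138 to 246 reads, counting gives 6.91% and 7.55%, against 13.6% and 17.2% between hearts.

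The balance between guide and passenger was examined for each hairpin. The 5p arm supplied 0.223 ± 0.021% of the reads of both mir-148a arms in the sham group and 0.192 ± 0.021% in the I/R group (3 hearts each). The 5p share was higher for mir-152, at 1.37 ± 0.074% and 1.22 ± 0.18%, and highest for mir-148b, at 5.35 ± 0.62% and 5.64 ± 1.63%. In the mir-101 hairpins it was under 0.06% in every heart. In all 5 hairpins the 3p arm was thus the dominant strand, by different margins among copies with the same 3p seed.

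For mir-148a, log2(5p/3p) with the pseudocount stood at -8.61, -8.78 and -8.85 for sham replicates 1 to 3 and at -8.81, -8.97 and -9.11 for I/R replicates 1 to 3. The groups overlapped between sham replicate 3 and I/R replicate 1. Between hearts of the same replicate number, the I/R value was lower by 0.20, 0.19 and 0.26, with 3 of 3 pairs lower, as in 19.1% of the 94 precursors with both arms tested. The limma difference was -0.22 (SE 0.12, 95% interval -0.51 to 0.08, adjusted p = 0.685). With the replicate number as a block its unadjusted p was 0.0591 and its adjusted p 0.396.

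For mir-152 the limma difference in log2 arm ratio was -0.17 (SE 0.13, 95% interval -0.49 to 0.15, adjusted p = 0.763), also lower in I/R in 3 of 3 pairs. It was -0.07 without I/R replicate 3 and -0.27 without I/R replicate 2. For mir-148b it was 0.04 (SE 0.22, 95% interval -0.49 to 0.57, adjusted p = 0.967). Here I/R replicate 3 stood apart, with 7.46% of the reads on the 5p arm against 4.31% to 5.95% in the other hearts, and without it the difference was -0.18. Of the 94 precursors limma called 0 (percent called 0), and 6.38% had an unadjusted p under 0.05, none of them from these families. Separate groups were found in 0 of the 3 hairpins, beside 5.32% of precursors separate toward 5p and 6.38% toward 3p. The passenger arm miR-148b-5p was at 12.7 ± 0.66 RPM in sham and 14.5 ± 3.54 RPM after I/R, and miR-152-5p at 20.4 ± 2.04 and 20.8 ± 2.91 RPM (3 hearts per group).

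**Figure D5:**
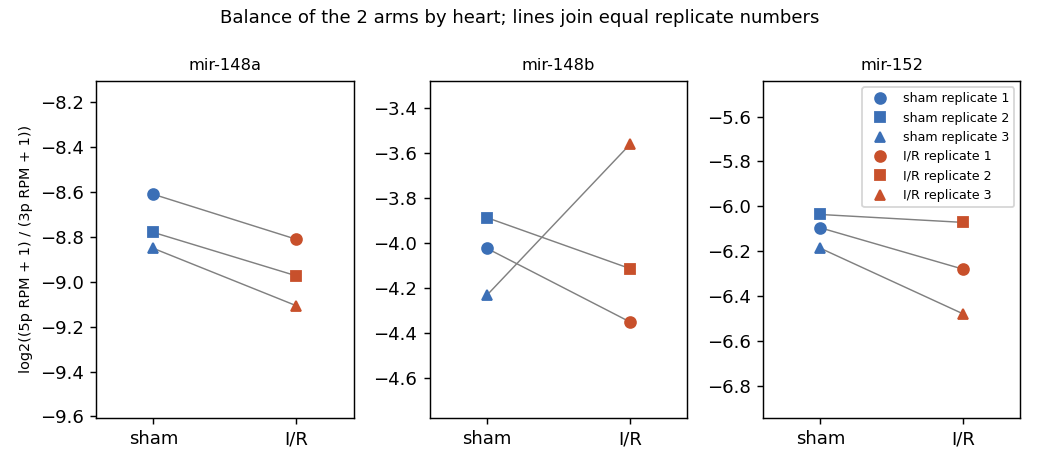
log2 ratio of 5p to 3p level in each heart for mir-148a, mir-148b and mir-152, on axes of equal span, with lines joining hearts of the same replicate number. The lines fall in 3 of 3 pairs for mir-148a and mir-152, and for mir-148b replicate 3 rises while the other 2 fall.

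The names whose pattern over the 6 hearts was most like each guide strand were mostly from other families. Likeness was measured as the root mean square difference of centred log2(RPM + 1) values, whose median over all names was 0.20 to 0.24. For miR-152-3p the nearest names were miR-27a-3p (0.04) and miR-125b-2-3p (0.05), and for miR-148a-3p miR-126b-5p (0.07) and miR-1843a-5p (0.07). For miR-148b-3p they were miR-3065-3p (0.06) and miR-203-3p (0.06). For miR-101a-3p they were miR-1843b-5p (0.04) and miR-27b-3p (0.06), and for miR-101b-3p miR-181a-5p (0.03) and miR-322-3p (0.04). The family copies were less alike: miR-152-3p took place 77 and miR-148b-3p place 66 in the order of likeness to miR-148a-3p, and miR-101b-3p place 11 for miR-101a-3p. This is a description of 6 libraries, in which names that hardly vary are near to each other.

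Other miRNAs known for targeting chromatin enzymes gave the surroundings of these families, and 0 of the 19 tested names of 3 lists were called in limma. Of 7 listed for DNA methyltransferases, all 7 were tested, with 3 positive and 4 negative log2 fold changes and a median of -0.03. The 2 with the smallest p were miR-29c-3p, of a family known for targeting Dnmt3a and Dnmt3b (19.3 ± 3.18 and 15.5 ± 0.59 RPM, log2 fold change -0.28, limma adjusted p = 0.628), and miR-185-5p, reported to target Dnmt1 (938 ± 15.5 and 1018 ± 43.9 RPM, 0.12, limma adjusted p = 0.674).

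Of 8 listed for Polycomb subunits, 6 were tested, with 5 positive and 1 negative and a median of 0.11. They were led by miR-200b-3p, known for targeting Suz12 (1.68 ± 0.30 and 3.01 ± 0.28 RPM, log2 fold change 0.59, limma adjusted p = 0.598), and miR-214-3p, known for targeting Ezh2 (33.1 ± 5.02 and 45.6 ± 12.2 RPM, 0.43, limma adjusted p = 0.598). For miR-200b-3p the groups were separate and the unadjusted limma p was 0.0146, beside 7.09% of all tested names higher with p under 0.05. Its level was near the 1 RPM filter, where the pseudocount understates a change. Of 7 listed for deacetylases, 6 were tested, with 3 positive and 3 negative and a median of -0.03. The smallest p belonged to miR-22-3p (12926 ± 517 and 12069 ± 285 RPM, log2 fold change -0.10, limma adjusted p = 0.661) and miR-206-3p (12.1 ± 1.68 and 10.1 ± 0.39 RPM, -0.23, limma adjusted p = 0.661), both known for targeting Hdac4. The median over all tested names was 0.10, between those of the lists, and these signs are those with equal totals.

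The cell sources of the families cannot be told apart in whole-heart RNA, where fewer cells of a type and less RNA per cell look alike. Marker miRNAs fixed for other cell types were above 0 in all libraries, at 24893 to 27478 RPM in sham and 25829 to 31830 RPM in I/R hearts for the endothelium and 35566 to 46739 and 41127 to 49773 RPM for smooth muscle. Fibroblast markers summed to 174 to 229 and 214 to 266 RPM, leukocyte markers to 77.1 to 103 and 86.8 to 89.0 RPM, and red blood cell markers to 3.33 to 6.85 and 1.52 to 5.26 RPM. The 3 liver markers, of interest because miR-148a is abundant in liver, summed to 2664 to 2856 and 2718 to 3252 RPM. Nearly all of that was miR-192-5p (2726 ± 96.0 and 3009 ± 290 RPM), and the liver miRNA miR-122-5p was at 3.37 ± 0.28 and 3.96 ± 0.33 RPM, with separate groups (limma adjusted p = 0.742). The endothelial, smooth muscle, fibroblast, leukocyte, red blood cell and liver sums overlapped between the groups. Those of heart muscle did not, at 385458 to 389856 RPM in sham and 357828 to 383230 RPM in I/R hearts. Taken singly, 1 of the 4 heart muscle markers, miR-1a-3p, had separate groups.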

How the data were processed

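Mature miRNAs were measured in 6 libraries from mouse hearts, 3 sham and 3 I/R, grouped by the treatment in the labels. The libraries are titled miRNA-seq, but the labels' protocols name kits for poly(A) mRNA. The deposited values, called FPKM by the file's name, are a signal that is the same for all lengths: in each library 100% of the values were whole multiples of 1 step (tolerance 0.01 reads), as RPM (reads scaled to 1000000 per library) divided by a constant length would be. Whole reads were recovered from the steps and expressed as RPM. The mm10 build, fastp 0.23.0 and bcl2fastq 2.19.1.403 are named per the submitters' processing notes. Aligner, miRNA annotation and handling of reads that fit several names: not given in the sources used here.

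Differences were tested with limma 3.58.1 (R 4.3.3, mean-variance trend) on log2(RPM + 1), which understates the change of low names, with Benjamini-Hochberg adjustment over all 409 tested names and a two-sided threshold of 0.05. Arm balance was tested likewise on the log2 ratio of 5p to 3p in 94 precursors with both arms tested, and ratios between members with exact permutation tests. The fit was tested on simulated data. The named miRNAs are the 7 members, the 2 nearest names to each guide strand and the 2 with the smallest p in each list. Members, lists and alternatives were chosen with earlier results of these data known. Alternatives were the pseudocount, the filter, the scaling, limma's settings, the replicate block, edgeR 4.0.16, DESeq2 1.42.0 and each library left out.

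Replicate numbers 1 to 3 occur in both groups. Libraries with equal numbers deviated together from their groups' means (correlations of 0.14, 0.28 and 0.16 over names, each above 0.1). Between unequal numbers the correlations were -0.19 to 0.07. On this basis the numbers were taken to pair the libraries. The correlations are weak, and deviations from a group's mean sum to 0, so these values constrain each other. The reported fits are unpaired, as designed, and the fit with the number as a block is an alternative. What a number shares is not stated in the labels.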

Additional observations from a re-analysis of the deposited data

How the results depend on the processing

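No member was called under any of the 18 alternatives to the fit over names, and no precursor under any of the 13 alternatives for arm balance. Leaving out sham replicate 2 gave miR-152-3p an unadjusted limma p of 0.0372 (adjusted p = 0.456). Its unadjusted limma p was 0.224 without sham replicate 1 and 0.294 with median-ratio scaling. In edgeR it was 0.401 and in DESeq2 0.355. The count of called names was 0 as reported, 1 without a filter, 2 in DESeq2, 4 with the replicate block, and 0 to 1 with a library left out; the block changed no other call. miR-152-3p and miR-148a-5p kept their sign under all 18, at 0.07 to 0.23 and -0.26 to -0.01 on the log2 scale. With a library left out, miR-148a-3p lay at 0.02 to 0.14, miR-148b-3p at 0.03 to 0.18, miR-101a-3p at 0.04 to 0.13 and miR-101b-3p at 0.03 to 0.16. Signs turned for miR-148a-3p (-0.026 with median-ratio scaling, -0.037 in edgeR, -0.021 in DESeq2), miR-101a-3p (-0.0047, -0.020 and -0.0038 there, and -0.038 with quantile normalization), miR-101b-3p (-0.0073, -0.025, -0.0085 and -0.018) and miR-148b-3p (-0.023 with quantile normalization); the medians of all names moved down with these. The summed miR-101 level was 1.07 ± 0.068 times sham in I/R hearts, where ± is an error combined from the relative SDs of both groups. It was 0.997 times with median-ratio scaling and 1.03 to 1.09 times with a library left out. The summed miR-148 level was 1.06 ± 0.092 times, with ± formed likewise, and moved by less than this error.

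The arm balance of mir-148b, 0.04, was -0.0091 with a pseudocount of 10 RPM and -0.185 to 0.210 with a library left out, turning without sham replicate 3 (-0.053) or I/R replicate 3 (-0.185). The ratio of miR-148b-3p to miR-148a-3p ranged from -0.042 to 0.162 and turned without sham replicate 1 or 2 or I/R replicate 2 (-0.00074, -0.042 and -0.0038). That of miR-101b-3p to miR-101a-3p ranged from -0.053 to 0.053 and turned without sham or I/R replicate 2 (0.053 and 0.026). The cause of these turns was not tested. The ratio of miR-152-3p to miR-148a-3p was 0.02 to 0.19 with a library left out, and the arm balances of mir-148a and mir-152 were -0.29 to -0.15 and -0.27 to -0.07. With the replicate block the exact p was 0.25 for the ratio of miR-152-3p, 0.75 for that of miR-148b-3p and 1 for that of miR-101b-3p. Depth limits miR-101a-5p, which had 0 to 5 reads a library.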

Other observations

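The passenger arm of miR-101b was as scarce as that of miR-101a, with miR-101b-5p at 4, 1 and 0 reads in sham and 0, 0 and 4 reads in I/R hearts. The erythroid miR-144-3p shares bases 2 to 7 (ACAGUA) with miR-101a-3p and averaged 0.348 RPM over the 6 hearts, beside 4323 RPM for miR-101a-3p.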
